A study of Schizosaccharomyces pombe with 15 samples.

Results

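The genes examined here encode the proteins of the cytosolic ribosome of the fission yeast Schizosaccharomyces pombe. Members were taken by name alone: every protein-coding gene of chromosomes I, II and III whose symbol begins with rpl, rps or rpp followed by a digit. The rule gave 141 of 5113 protein-coding genes, 76 named rpl for the large subunit, 55 named rps for the small subunit and 10 named rpp. Of the last, 7 encode the acidic stalk proteins of the large subunit (rpp0, rpp101, rpp102, rpp103, rpp201, rpp202 and rpp203). The other 3, rpp1, rpp40 and rpp21, share the prefix but are annotated as subunits of RNase P or RNase MRP, so 138 members are ribosomal proteins.

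The measurement was chromatin immunoprecipitation followed by sequencing of Scr1 carrying a C-terminal TAP tag. Scr1 is a zinc finger repressor that acts in carbon catabolite repression, the system by which yeast shuts off genes for other carbon sources while glucose is present. All 3 groups carried scr1::TAP-KanMX6 and were precipitated with an antibody to Protein A. Wilmar-P, an isolate used for making ethanol from sugarcane molasses (h90, with no other marker in its labels), was sampled in molasses medium. Laboratory S. pombe was sampled in molasses too with the genotype label h+ ura4-d18 leu1-32 ade6-m216, although its strain label names an h- strain, so mating type and nutritional markers differ from Wilmar-P along with the background. Wilmar-P was also sampled in rich medium with 3% glucose. Cells had been moved from glucose medium to these media 4 h before crosslinking. Each group had 2 biological replicates, and each replicate gave 1 list of enriched regions, or peaks, so there were 6 lists. Only 1 input sample, the control for calling peaks, is listed for each group, so the 2 lists of a group appear to share it. No untagged control is listed. The depth behind the 6 lists is unknown, since they hold no read counts, and whether each tagged strain was 1 clone is not given in the sources used here.

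Ribosomal protein genes are among the most strongly transcribed genes of a growing yeast cell, and their output is tied to nutrient supply. Most ribosomal proteins of S. pombe are encoded by more than 1 gene copy. Their promoters are known for the HomolD box, an element near the transcription start that takes the place of a TATA box, and for the HomolE box beside it. Scr1, like Mig1 of Saccharomyces cerevisiae, binds GC-rich sites and is known from the promoters of sugar and carbon metabolism genes.

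The promoter elements set the members apart from other genes and mark where a promoter-bound factor would be looked for, so some are shown before the peaks. The HomolD letters CAGTCACA were searched on both strands in the 500 bp before each start codon. They were present at 89 of 141 members (63.1%), against 2.86% of all protein-coding genes. HomolE, searched as ACCCTACCC on both strands, was present at 41 members (29.1%), against 1.29% of all genes. Of 94 HomolD matches at members, 90 began between 40 and 140 bp before the start codon, with a median of 73 bp. The 4 stretches below belong to members that hold both boxes and are among the best ranked in the peak lists. They are read from the RefSeq genome (ASM294v3) on the strand of the gene, with HomolD and HomolE, or their reverse complements TGTGACTG and GGGTAGGGT, in capitals. In order they lie at chrIII:2096065-2096114 (minus strand), chrI:898989-899038 (minus strand), chrII:2045400-2045449 (plus strand) and chrI:1756004-1756053 (plus strand), all before the annotated transcript starts.
rps2: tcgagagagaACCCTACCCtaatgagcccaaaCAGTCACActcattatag
rps102: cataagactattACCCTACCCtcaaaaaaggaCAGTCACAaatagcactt
rpl8: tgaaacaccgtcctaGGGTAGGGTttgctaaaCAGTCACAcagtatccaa
rpl301: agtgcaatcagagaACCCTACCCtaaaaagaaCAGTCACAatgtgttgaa
In all 4 the HomolE letters stand before HomolD and within the same 50 bases. Other members among the best ranked hold HomolD alone, such as rpl39 and rps27, or neither box, such as rpl3202 and rpp0.

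A peak was assigned to a gene when its summit, the position of highest enrichment, lay in the coding exons or within 1000 bp upstream of the start codon. In the lists of Wilmar-P in molasses, 52 members had a peak in replicate 1 and 69 in replicate 2. These are 36.9% and 48.9% of members, against 12.4% and 13.5% of all protein-coding genes. The laboratory molasses lists held peaks at 97 and 104 members (68.8% and 73.8%, against 58.5% and 61.2% of all genes). For Wilmar-P in glucose, 28 members had a peak in replicate 1 (19.9%, against 5.1% of all genes), but only 1 in replicate 2 (0.709%, against 2.91%). Members thus stood above the share of all genes in 5 of the lists and below it in glucose replicate 2. The lists differed in length, with 961 and 1073 peaks on the 3 chromosomes for Wilmar-P in molasses, 4239 and 4479 for laboratory S. pombe in molasses, and 386 and 228 for Wilmar-P in glucose.

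**Figure D1:**
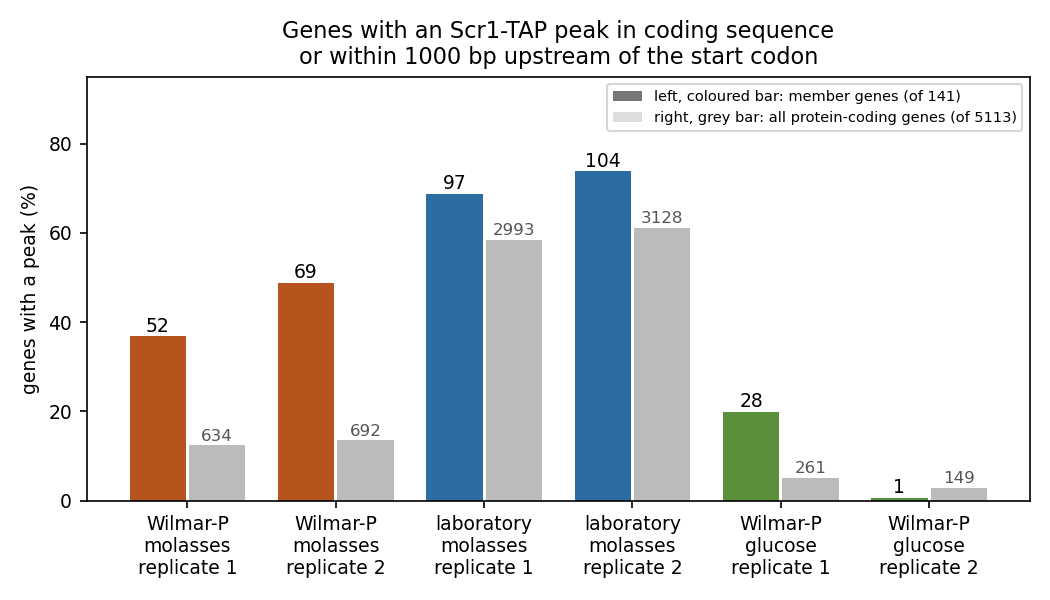
Share of genes with an Scr1-TAP peak in coding sequence or within 1000 bp upstream of the start codon (y axis, percent) in each of the 6 lists (x axis). Coloured bars are the 141 members and grey bars all 5113 protein-coding genes, with the number of genes above each bar; members reach 52 and 69 for Wilmar-P in molasses, 97 and 104 for the laboratory strain in molasses, and 28 and 1 for Wilmar-P in glucose.

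The first comparison asks whether the number of members with a peak in molasses differed between the industrial and the laboratory strain. Wilmar-P lists held peaks at 60.5 ± 12.0 members and laboratory lists at 100.5 ± 4.9 members (SD, n = 2 each), a difference of -40. No Wilmar-P list reached the number in either laboratory list. The two-sided exact permutation test gave p = 0.33, the smallest p that 2 lists against 2 can reach. The difference stayed negative under most other settings, such as -41 with only peaks of -log10 q of at least 5. It was 1.5 at a fold enrichment of at least 3, and it also changed when lists were cut shorter. What lies behind the difference was not tested. The lists precede a later step of the authors that compares replicates. After that step, the paper reports more Scr1 binding sites genome-wide in Wilmar-P than in laboratory S. pombe in molasses. The counts here are thus no measure of how much Scr1 was bound. With every list cut to its best 228 peaks, no molasses list held a member peak and the difference was 0 (exact permutation test, p = 1.0). With only the laboratory lists cut to their best 961 peaks by -log10 p, a setting chosen after the data were seen, 36 and 22 members remained there and the difference was 31.5. Shares of all genes are not given for the cut lists. The second comparison asks the same of molasses against glucose within Wilmar-P. Molasses lists held peaks at 60.5 ± 12.0 members and glucose lists at 14.5 ± 19.1 members (SD, n = 2 each), a difference of 46 (exact permutation test, p = 0.33, the smallest possible). The difference was 24 within replicate 1 and 68 within replicate 2, and -2.5 with every list cut to its best 228 peaks. Both comparisons use the Wilmar-P molasses lists.

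Below, a member is called in a group when both of its replicate lists hold a peak there. In Wilmar-P in molasses 45 members were called (31.9%, against 11.1% of all genes). The calls lay in the genes themselves: 40 members had a coding summit in both lists (28.4%, against 3.58% of all genes), and 8 had an upstream summit in both (5.67%, against 8.35%). Upstream, the share of members lay below that of all genes, and in coding sequence above it. For laboratory S. pombe in molasses, 95 members were called (67.4%, against 53.1%), 92 with coding summits (65.2%, against 48.4%) and 16 with upstream summits (11.3%, against 8.16%). Glucose-grown Wilmar-P had 1 called member (0.709%, against 2.6%), with a coding summit (0.709%, against 0.254%), and 0 had an upstream summit in both lists (against 2.41%). The counts moved with single lists: replicate 2 of Wilmar-P in molasses alone held 69 members and glucose replicate 1 alone held 28.

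By role, 26 of 76 large subunit genes, 17 of 55 small subunit genes and 2 of 7 stalk genes were called in Wilmar-P in molasses. The counts were 49, 42 and 3 for the laboratory strain in molasses, and 0, 1 and 0 for Wilmar-P in glucose. Of the 3 rpp genes of RNase P or RNase MRP, only rpp21 was called, in laboratory S. pombe and upstream. Its summits lay 83 and 80 bp downstream of the rpl2802 start, in rpl2802 coding sequence. The annotation of rpl701 also names an RNase MRP subunit, and it was counted with the large subunit. As shares, 34.2% of large subunit, 30.9% of small subunit and 28.6% of stalk genes were called in Wilmar-P in molasses. The shares in the laboratory strain were 64.5%, 76.4% and 42.9%. Of all genes, 11.1% were called in Wilmar-P in molasses, 53.1% in the laboratory strain and 2.6% in Wilmar-P in glucose. The stalk share in the laboratory strain thus lay below that of all genes.

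The members called in the 2 strains overlapped in part. Of the 45 called in Wilmar-P in molasses, 36 (80.0%) were also called in laboratory S. pombe in molasses, where they made up 37.9% of the 95. Over all genes the overlap was much the same from the Wilmar-P side, 441 of 566 (77.9%), and 16.3% of the 2713 laboratory calls, so the 80.0% is close to the background. The other 9 were rpl2001, rpl2701, rpl3001, rpl31, rpl39, rpl4302, rps13, rps2202 and rps27. Of these, rpl2701, rpl31, rpl4302 and rps2202 had a peak in 1 laboratory list, rpl4302 with a fold enrichment of 1.37 and rps2202 with 1.94 in replicate 2. Over all 6 lists, 25 members had no peak at all and 1 member, rps2, had a peak in each. The same counts over all genes are not given here, so neither number is set against a background.

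Member peaks were weak ones. MACS2 gives each peak a fold enrichment over input and a -log10 p, from which ranks were taken, with 1 as the strongest peak of a list. In Wilmar-P in molasses the fold enrichment of member peaks ran between 1.56 and 3.76 in replicate 1 (median 2.05) and between 1.36 and 3.23 in replicate 2 (median 1.9). The median of all other peaks was 3.88 and 2.9 in these lists, and the strongest reached 112.95 and 84.36. Other peaks with a summit in coding sequence had medians of 2.18 and 1.76, and peaks outside coding sequence 4.66 and 3.9, so member peaks lay near other coding peaks in strength. The best placed member stood at rank 467 and 451, and 98.1% and 98.6% of member peaks fell past the middle of the ranked list.

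The fold enrichment of member peaks in the laboratory molasses lists had medians of 1.84 and 1.81, against 1.76 and 1.8 for all other peaks. The best placed member stood at rank 291 and 258, and 36.9% and 39.8% of member peaks fell past the middle of the list. In glucose replicate 1 the median fold enrichment was 2.61, against 3.75 for all other peaks, and 92.3% fell past the middle. Member peaks thus gathered at the weak end of the Wilmar-P lists. Places in the laboratory lists cannot be set against these directly, since those lists are longer and 90.8% and 91.5% of their summits lie in coding sequence, against 25.6% and 34.7% in the Wilmar-P molasses lists.

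**Figure D2:**
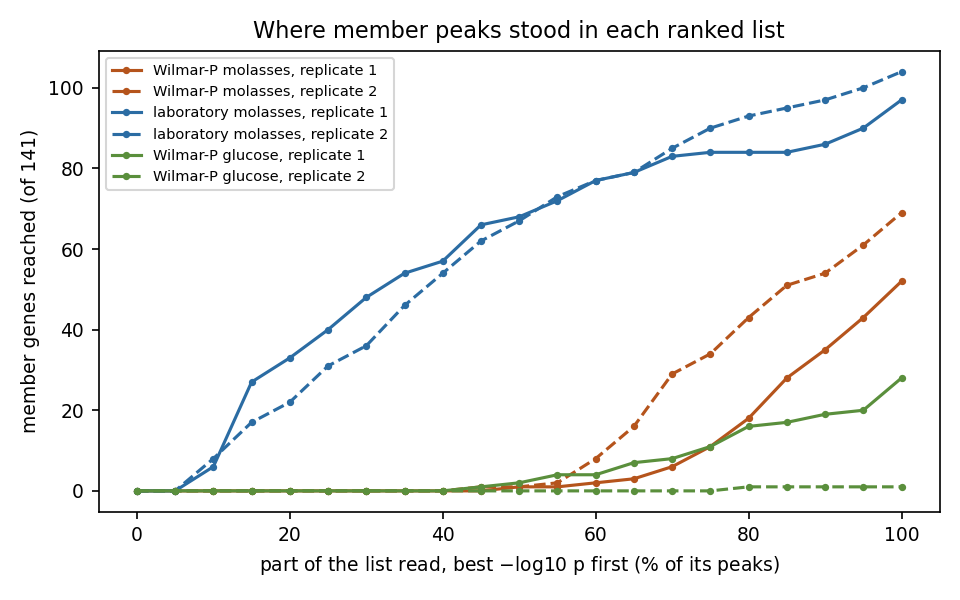
Number of member genes with a peak (y axis, of 141) as each list is read from its strongest to its weakest peak by -log10 p (x axis, percent of the peaks of that list). Solid lines are replicate 1 and dashed lines replicate 2; at 50% of the list 1 member was reached in each Wilmar-P molasses list (961 and 1073 peaks), against 68 and 67 in the longer laboratory molasses lists (4239 and 4479 peaks).

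Within the coding sequences, the summits in Wilmar-P lay toward the stop codon. Position was scaled so that the start codon is 0 and the stop codon 100%, introns included. In Wilmar-P in molasses, 45 of 47 member coding summits in replicate 1 (95.7%) and 57 of 64 in replicate 2 (89.1%) lay past the midpoint of the gene. In the same lists 57.5% and 61.5% of the coding summits of other genes did. The laboratory lists had 65.3% and 56.3% of member coding summits past the midpoint, against 57.7% and 57.3% for other genes. The share averaged 92.4 ± 4.7% over the Wilmar-P lists and 60.8 ± 6.4% over the laboratory lists (SD, n = 2 each), a difference of 31.6 points without overlap between lists (two-sided exact permutation test, p = 0.33, the smallest possible). In glucose replicate 1, 18 of 24 (75.0%) lay there.

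For 32 members a coding summit was present in all 4 molasses lists, so that the strains could be set side by side gene by gene. The mean summit was nearer the stop codon in Wilmar-P for 26 of them and nearer the start codon for 6, with a median difference of 9.1 points of gene length. For 16 members both Wilmar-P summits lay nearer the stop codon than both laboratory summits, and for 1, rpl35, nearer the start codon. The difference was largest at rpp0, the stalk base protein uL10, with summits at 95.4% and 94.2% in Wilmar-P, against 14.7% and 16.5% in laboratory S. pombe. At rpl13, a large subunit gene, they stood at 81.3% and 85.5% in Wilmar-P, against 11.5% and 19.1% in laboratory S. pombe. At rps1401, a small subunit gene, they stood at 87.9% and 94.0% in Wilmar-P, against 26.9% and 38.3% in laboratory S. pombe. At rps2402 the order was mixed, with 65.8% and 89.7% in Wilmar-P, against 82.3% and 84.4% in laboratory S. pombe. The differences thus ranged between -5.6 and 79.2 points, and most members with a large one had it toward the stop codon.

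**Figure D3:**
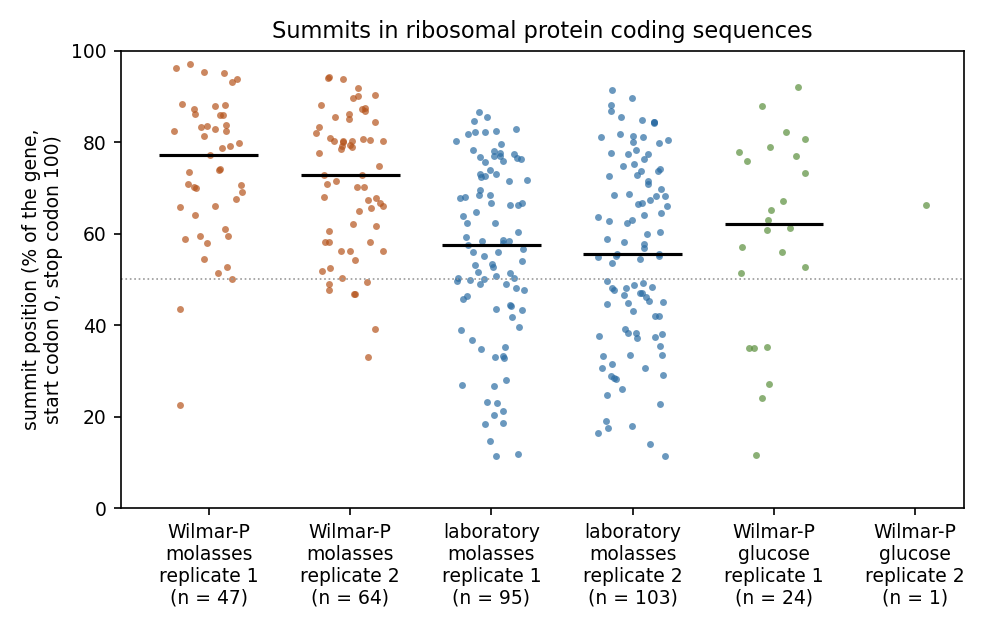
Position of each coding summit in a member gene (y axis, percent of the distance between start codon, 0, and stop codon, 100) in each list (x axis, n is the number of summits). Points are summits spread sideways for visibility, black lines are medians; medians stand at 77.1% and 72.8% for Wilmar-P in molasses, 57.6% and 55.5% for the laboratory strain in molasses, and 62.2% in Wilmar-P glucose replicate 1.

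The shared member is rps2 (SPCC576.08C), which encodes uS5 of the small subunit, on the minus strand of chrIII:2095135-2096036. In Wilmar-P in molasses its strongest peaks had fold enrichments of 2.87 and 1.89, at ranks 615 and 748. They had 1.98 and 2.31 for laboratory S. pombe in molasses, at ranks 526 and 265. Glucose-grown Wilmar-P gave 3.71 and 3.63, at ranks 173 and 176, which made rps2 the best placed member of both glucose lists. The summits lay 514 and 384 bp after the first base of the start codon in Wilmar-P in molasses, 384 and 351 bp in the laboratory molasses lists, and 481 and 505 bp in the glucose lists, all in coding sequence. The stretch at chrIII:2095464-2095647 that spans them is printed on the strand of the gene, with the 5 summit bases in capitals (1 is shared by 2 lists).
rps2 coding: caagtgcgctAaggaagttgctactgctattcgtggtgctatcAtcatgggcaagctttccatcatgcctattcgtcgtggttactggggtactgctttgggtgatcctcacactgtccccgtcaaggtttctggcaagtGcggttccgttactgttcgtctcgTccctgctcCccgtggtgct
From the start codon toward the stop codon, the capitals are the summit of laboratory replicate 2, the one that laboratory replicate 1 shares with Wilmar-P molasses replicate 2, and then those of glucose replicate 1, glucose replicate 2 and Wilmar-P molasses replicate 1. The stretch starts more than 300 bases into the gene, while the promoter boxes shown above lie before it, with HomolD beginning 94 bp before the start codon.

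The members with coding peaks that were best placed in Wilmar-P in molasses, ahead of rps2, included rpl8, rps102, rps27 and rpl14. The gene rpl8 (SPBC29A3.04, eL8) had fold enrichments of 3.36 and 2.55 in Wilmar-P in molasses, at ranks 560 and 589, against 2.12 and 1.94 in laboratory S. pombe in molasses. In glucose it had 3.05 in replicate 1 and no peak in replicate 2. The gene rps102 (eS1) had 2.9 and 2.59 in Wilmar-P in molasses, with summits at 97.2% and 93.8% of the gene, against 1.75 and 2.0 in laboratory S. pombe, with summits at 45.8% and 33.3%. For both genes the Wilmar-P molasses values lay above the laboratory ones, but fold enrichments of separately sequenced libraries over separate inputs are on no common scale.

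The gene rps27 (eS27) had fold enrichments of 2.73 and 2.5 in Wilmar-P in molasses and no peak in the other 4 lists. The gene rpl14 (eL14) had 2.58 and 2.67 in Wilmar-P molasses lists, against 2.23 and 2.01 in the laboratory lists and 2.54 in glucose replicate 1. At rpl14 the coding summits of all 5 lists lay between 73.3% and 91.8% of the gene, so their position did not separate the strains. The laboratory lists also held weaker peaks of 1.78 and 1.82, 519 and 632 bp before the rpl14 start codon, where the Wilmar-P lists held none. These summits lay 356 and 469 bp downstream of the annotated start of the neighbour ubi2, that of replicate 1 in ubi2 coding sequence. The stalk gene rpp0 had 2 coding peaks in each Wilmar-P molasses list, the stronger with 2.68 and 2.42, against single peaks of 1.34 and 1.46 in laboratory S. pombe. In glucose replicate 1 it had a peak of 2.75 at 92.1% of the gene, near the Wilmar-P molasses summits.

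Among the laboratory molasses lists the best placed members were rpl301 (ranks 291 and 414), rpl22 (491 and 258), rps2 with its divergent neighbour rps20, rpp103 (479 and 328), rpl1702 (543 and 269), rpl1901 (466 and 354), rps402 (338 and 536), rpl1201 (446 and 557) and rpl2302 (702 and 500). The best rank of rps20 is that of the rps2 coding peak, which lies within 1000 bp of the rps20 start codon, and rank 557 of rpl1201 is a peak in the upstream neighbour sfc4. The gene rpl301 encodes L3, a core protein of the large subunit; its summits lay at 71.6% and 69.7% of the gene in the laboratory lists, with fold enrichments of 2.46 and 2.34, and Wilmar-P in molasses had a peak of 1.69 in replicate 2 only. The gene rpp103 encodes a P1 stalk protein and had 2.18 and 2.4 in the laboratory lists, against 2.24 in Wilmar-P molasses replicate 2 and no peak in replicate 1. Of these 10 members, rps2, rpl1702, rps402 and rpl2302 were also called in Wilmar-P in molasses.

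**Figure D4:**
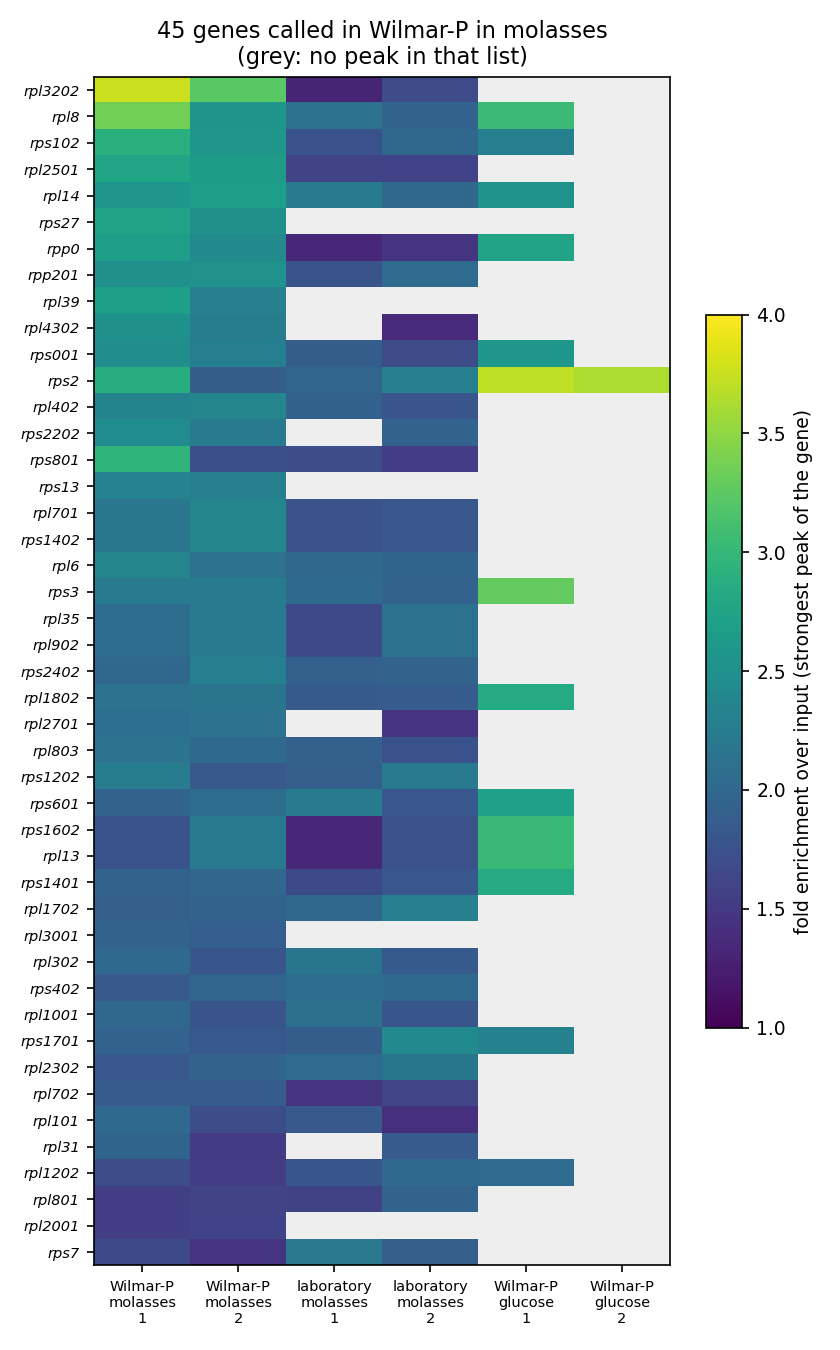
Fold enrichment over input (colour scale) of the strongest peak at each of the 45 members called in Wilmar-P in molasses (rows, sorted by the sum of their 2 Wilmar-P molasses values) in the 6 lists (columns, replicates 1 and 2 of each group). Grey means that the list holds no peak at the gene; rpl3202 leads with 3.76 and 3.23, and rps2 alone has a value in every column.

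Upstream peaks are where Scr1 is known to act, and 8 members had one in both Wilmar-P molasses lists. For 4 of them, rpl35, rpl902, rps1402 and rps1602, it is the coding peak of a divergent ribosomal protein gene: rpl35 and rpl902 are neighbours with 222 bp between their start codons, rps1402 lies 168 bp across from rpl701, and rps1602 lies 146 bp across from rpl13. When such summits were left out, 4 of the 8 remained in Wilmar-P in molasses (rpl3202, rpl2501, rpl39 and rpp201) and 0 of the 16 in laboratory S. pombe in molasses. Replicate 2 of Wilmar-P in molasses also had a summit between rpl35 and rpl902, 23 and 181 bp before their annotated starts, which replicate 1 lacked. There were 5 divergent member pairs in all within 1000 bp, the other 2 being rps2 with rps20 and rps1502 with rpp203.

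The strongest member peak of Wilmar-P in molasses was upstream of rpl3202 (SPAC3H5.10, eL32), with fold enrichments of 3.76 and 3.23 and summits 454 and 457 bp before the start codon. Laboratory S. pombe had none there, only weak coding peaks of 1.31 and 1.69, and glucose had none. The same summits lay 104 and 101 bp before the annotated start of hob2, which diverges from rpl3202, so the gene they belong to cannot be told apart by position. The peaks upstream of rpl2501 (SPBC106.18, uL23) had 2.77 and 2.66 in Wilmar-P in molasses, 183 and 162 bp before the start codon, beside coding peaks of 2.02 and 1.6. Laboratory S. pombe had the coding peaks only, with 1.61 and 1.6. The peaks upstream of rpp201, a P2 stalk protein gene, had 2.5 and 2.52 in Wilmar-P in molasses and lay 764 and 753 bp before its start codon, but nearer to nce103, 241 and 252 bp before its annotated start. The stretches spanning the Wilmar-P molasses summits of these genes are shown because they are the upstream positions that recurred in both replicates. They lie at chrI:3416465-3416528 (minus strand), chrII:413343-413424 (plus strand) and chrII:3642395-3642466 (plus strand), with the 2 summit bases in capitals.
rpl3202 upstream: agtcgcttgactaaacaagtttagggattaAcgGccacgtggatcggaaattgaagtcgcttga
rpl2501 upstream: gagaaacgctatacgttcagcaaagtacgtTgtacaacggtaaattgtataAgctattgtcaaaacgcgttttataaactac
rpp201 upstream: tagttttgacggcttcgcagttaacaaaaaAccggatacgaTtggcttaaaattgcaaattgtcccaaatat
The rpl3202 summits of the replicates are 3 bases apart, those of rpl2501 lie 21 apart and those of rpp201 lie 11 apart.

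The gene rpl39 (SPCC663.04), which encodes a short protein of the exit tunnel region, was the member with the upstream summits closest to its start codon. They lay 33 and 12 bp before it in Wilmar-P in molasses, with fold enrichments of 2.69 and 2.31, and the other 4 lists held no peak at the gene. The 50 bases at chrIII:1640939-1640988 (plus strand) hold both of its HomolD boxes, in capitals, and end on the summit of replicate 1.
rpl39 promoter: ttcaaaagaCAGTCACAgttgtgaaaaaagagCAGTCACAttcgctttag
Summits this near a HomolD box were rare. Among member peaks at genes with the box, 1 of 39 and 3 of 53 in the Wilmar-P molasses lists lay within 100 bp of it, against 0 of 83 and 0 of 89 in the laboratory molasses lists, and 0 of 20 in glucose replicate 1. The median distance was 613 and 516 bp in Wilmar-P in molasses, and 461 and 453 bp in laboratory S. pombe.

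A GC-rich motif of the Mig1 type (CCGGGG as well as CTGGGG, and further GCGGGG as well as GTGGGG, on either strand) was searched within 100 bp of each summit. Around Wilmar-P molasses summits it was present at 4 of 54 member peaks (7.41%) and 5 of 69 (7.25%), against 17.0% and 16.3% of other peaks. The laboratory molasses lists had 7.21% and 6.78% at member peaks, against 7.24% and 7.41% at other peaks. In glucose replicate 1 it was present at 6 of 26 member peaks (23.1%), against 26.9% of others. In the 500 bp before the start codon, 10 members (7.09%) held it, against 8.9% of all genes. Called members carried HomolD in 71.1% of cases in Wilmar-P in molasses, against 59.4% of members not called there.

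Most members have a paralogue with nearly the same product, which allows copies to be compared. Families were formed by symbol, and copies had to share at least 60% of their coding sequence; rpl8 matched rpl801, rpl802 and rpl803, which encode uL2, at only 49.0% to 50.1% and was taken alone. The 138 ribosomal protein genes then formed 77 families, 56 of them with at least 2 genes, with pairwise identities between 66.1% and 99.6%. The rpp genes of RNase P or RNase MRP were left out. In Wilmar-P in molasses all copies were called in 2 families, some in 27 and none in 27. The same counts were 31, 16 and 9 for laboratory S. pombe in molasses. A family was thus seldom called as a whole in Wilmar-P, where most members were near the end of the list.

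At the eS1 pair, rps102 was called in Wilmar-P in molasses and its copy rps101, 80.8% identical, had a single peak there, of 1.37 in replicate 2; in laboratory S. pombe in molasses both were called. At the uL23 pair, rpl2502 had in Wilmar-P only a peak of 1.56 in replicate 1, inside leu3. At the eL43 pair, rpl4302 had 2.51 and 2.26 in Wilmar-P in molasses and rpl4301 a single peak of 1.47. At the uL4 pair, rpl402 had 2.34 and 2.36 in Wilmar-P in molasses, and rpl401 had 1.65 in replicate 1 only. At the uS8 pair, rps2202 had 2.46 and 2.23 in Wilmar-P in molasses and rps2201 none. The eL32 copy rpl3201 had no peak in Wilmar-P and weak coding peaks of 1.46 and 1.67 in laboratory S. pombe, and of the P2 genes rpp202 had no peak in any list. Among the uL2 copies, rpl801 and rpl803 were called in Wilmar-P in molasses and rpl802, 93.0% identical to rpl803, was not. Copies with long identical stretches cannot be separated by short reads: rpl301 and rpl302 share 848 identical bases in a row and rpl1201 and rpl1202 share 485, so their values are uncertain.

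Coding length moved with the calls in both strains, and introns did so in laboratory S. pombe. The median coding length was 447 bp for members and 1137 bp for all genes. It was 564 bp for members called in Wilmar-P in molasses, against 436.5 bp for those not called, and 555 bp for members called in laboratory S. pombe, against 330 bp for those not called. Of the members called in laboratory S. pombe, 39 of 95 (41.1%) have introns, against 36 of 46 not called (78.3%). The shares for Wilmar-P in molasses were 51.1% of called and 54.2% of other members. Summits in introns were not counted, and the part of length in the calls was not tested. Members make up 0.986% of all coding bases, yet they held 19.1% and 17.2% of all coding summits in Wilmar-P in molasses (47 of 246 and 64 of 372), against 2.47% and 2.51% in laboratory S. pombe in molasses, and 17.8% and 5.26% in Wilmar-P in glucose.

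Glucose replicate 1 held peaks at 28 members, of which replicate 2 repeated only rps2. After rps2, its best placed members were rps1002 (fold enrichment 3.33), rpl13 (3.03) and rpl1601 (3.59), all with coding summits. Of the 28, 21 had a peak in at least 1 Wilmar-P molasses list, 14 were called in Wilmar-P in molasses and 25 in laboratory S. pombe in molasses. Over all genes, 11.1% were called in Wilmar-P in molasses and 53.1% in laboratory S. pombe in molasses. Of 133 genes with a peak in both glucose lists, 127 (95.5%) were called in Wilmar-P in molasses. The overlap over all genes of glucose replicate 1 alone is not given here, so the counts of the 28 have no direct background. The 2 glucose lists differed at members by more than the molasses lists did, so at members only the value of rps2 rests on both.

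Other genes of the translation machinery were read with the same rule. Of 17 translation factor genes found, 8 were called in Wilmar-P in molasses (47.1%, against 11.1% of all genes). In the laboratory strain 17 were called (100%, against 53.1%), and in glucose 1 (5.88%, against 2.6%). The strongest coding peaks were at tef101, an EF-1 alpha gene, with 5.09 and 3.8 in Wilmar-P in molasses, against 1.75 and 1.89 in laboratory S. pombe. Its paralogue tef103 had instead an upstream peak, of 15.06 and 11.19 in Wilmar-P in molasses, 193 and 157 bp before the start codon, and of 6.14 and 5.54 in Wilmar-P in glucose. The others called in Wilmar-P in molasses were tef102, eft201, eft202, tef3, tef5 and tif1, of which tef3 had both a coding and an upstream peak and the rest coding peaks.

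Of 17 ribosome biogenesis genes, 2 were called in Wilmar-P in molasses, gar2 in coding sequence and nog1 upstream (11.8%, near the 11.1% of all genes). The laboratory strain had 11 (64.7%, against 53.1%) and glucose 0 (against 2.6%). Of 10 regulators of ribosome synthesis, 2 were called in Wilmar-P in molasses (against 11.1% of all genes), 8 in the laboratory strain (against 53.1%) and 0 in glucose (against 2.6%). The 2 were sfp1, a transcription factor gene, with coding peaks of 3.63 and 2.58, and psk1, a kinase gene, with upstream peaks of 2.73 and 2.28. Mitochondrial ribosomal protein genes, which serve a separate ribosome, were called in 1 of 39 cases in Wilmar-P in molasses (mrps16, upstream, 3.96 and 3.63), in 12 in laboratory S. pombe and in 0 in glucose. Their shares lay below those of all genes in Wilmar-P in molasses (2.56%, against 11.1%) and in laboratory S. pombe (30.8%, against 53.1%). Those of the cytosolic members lay above in both.

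Genes of the kind Scr1 is known to bind gave the lists a point of reference. Of 15 glycolytic and fermentative genes, 13 were called in Wilmar-P in molasses, 14 in the laboratory molasses lists and 10 for Wilmar-P in glucose, 12, 10 and 10 of them upstream, with median fold enrichments of 26.97, 3.73 and 6.65. The called shares were 86.7%, 93.3% and 66.7%, against 11.1%, 53.1% and 2.6% of all genes. The invertase gene inv1 and scr1 itself have long annotated leaders, and their upstream peaks lay farther than 1000 bp from the start codon in every list, except for a weak scr1 peak 896 and 894 bp before it in the laboratory lists. With the distance taken from the annotated transcript start, both had upstream peaks in all 6 lists, at inv1 with 12.79 and 9.05 for Wilmar-P in molasses, 6.45 and 5.98 for the laboratory strain in molasses, and 3.64 and 3.53 for Wilmar-P in glucose. The strongest member peak, at 3.76, was below the inv1 peaks and the glycolytic median in Wilmar-P in molasses, but above the hexokinase genes hxk1 (2.59 and 2.33) and hxk2 (2.28 in each list).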

How the data were processed

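The authors trimmed reads with Cutadapt 1.9.1, aligned them with Bowtie2 2.3.1 to the laboratory S. pombe genome (build ASM294v2), and called peaks per replicate with MACS2 2.1.1 against an input. The deposited lists give for each peak its position, a fold enrichment over input (a ratio), a -log10 p, a -log10 q and a summit. A later step by the authors that compares replicates was not applied. Read counts, and so depth, are unknown, and p-values measure only the spread between 2 lists a group. Input and RNA polymerase II samples were not analysed here.

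Genes came from the RefSeq annotation (ASM294v3), whose chromosomes have the lengths of the authors' build; the 1 to 17 peaks per list off chromosomes I, II and III were left out. A summit in a coding exon or within 1000 bp upstream of the start codon assigned a peak, tested on simulated peaks. Lists were compared by exact permutation with Python 3.11.15. Named genes were the 10 best ranked called members a group, members with upstream peaks in both lists, paralogue families whose copies differ, and called genes of the other lists; further names were chosen after their values were seen. Members and lists were chosen with earlier results of these data known. Alternatives were other reaches, thresholds, list lengths, overlap rules and left-out lists.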

Additional observations from a re-analysis of the deposited data

How the results depend on the processing

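Counts of members depended most on how far down each list was read. Apart from single lists, whose shares stand above, no share of all genes is given for these settings. The counts below therefore have no background and describe the settings only. With every list cut to its best 228 peaks, 0 members were called in Wilmar-P in molasses and 0 in laboratory S. pombe in molasses, in coding sequence, upstream or at all; 0 and 0 had a peak in the Wilmar-P molasses lists, 0 and 0 in the laboratory lists and 4 in glucose replicate 1, Wilmar-P minus laboratory was 0 (exact permutation p = 1.0) and molasses minus glucose -2.5. At a fold enrichment of at least 3, Wilmar-P in molasses had 2 and 1 members per list, 1 called, 0 in coding sequence and 1 upstream; laboratory S. pombe had 0 throughout and glucose replicate 1 had 7. Wilmar-P minus laboratory was then 1.5 (exact permutation p = 0.33) and molasses minus glucose -2.5 (p = 1.0). With laboratory lists cut to 961 peaks, a setting chosen after the data were seen, 36 and 22 members had a peak, 12 were called, 10 in coding sequence and 1 upstream, and Wilmar-P minus laboratory was 31.5. The shorter lists hold fewer peaks by construction.

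With a peak in at least 1 list enough, 76 members were called in Wilmar-P in molasses (69 in coding sequence) and 28 in glucose (23 in coding sequence, 5 upstream), and 35 upstream in laboratory S. pombe. Without 1 replicate the called members ranged between 52 and 69 in Wilmar-P in molasses (46 to 63 in coding sequence), and between 1 and 28 in glucose (1 to 23 in coding sequence, 0 to 5 upstream); upstream in laboratory S. pombe they ranged between 25 and 26. Molasses minus glucose ranged between 24 and 68. With a reach of 500 bp, 3 members were called upstream in Wilmar-P in molasses and 2 in laboratory S. pombe. Leaving out upstream summits in other coding sequence left 4 and 0. Counting any overlap of the peak gave 38 upstream in laboratory S. pombe, and in glucose 2 called, 1 upstream and 2 in replicate 2. Of all values under the alternatives, 147 stayed within 1.5 times for a count, or within the larger SD of the lists (12.0 and 19.1 members) for a difference, while 51 moved and 4 reversed. The methods describe 1 culture being split over glucose and molasses, so equal replicate numbers of Wilmar-P may be paired, although no label states that the number marks the culture. With the replicate block, a fit added after the data were seen, molasses minus glucose was 24 and 68 within the pairs and 46 on average (exact test over signs, p = 0.5, the smallest that 2 pairs allow). No paired analysis was possible because the cultures differ for the comparison of Wilmar-P with the laboratory strain. Depth is unknown, so a member without a peak was not detected, which does not show that Scr1 was absent.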
